A study of Mus musculus with 12 samples.

Results

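Foxp3, Il2ra and Il10, which are 3 of the 748 endogenous genes of the nCounter Metabolic Pathways panel, were followed across RNA of T cells from 12 mice bearing pancreatic tumors. The genes were picked by name, for their place in regulatory T cell biology. KPC.Luc cells, a mouse pancreatic ductal adenocarcinoma line that carries luciferase, had been grown under the skin of female C57BL/6 mice, and T cells were taken from the tumors by magnetic selection for CD90.2 to a stated purity of 80 to 85%. Each of the 4 groups had 3 mice. Scram+IgG mice received a scrambled peptide and isotype IgG, ANT008+IgG mice the VIP receptor antagonist ANT008 and IgG, Scram+aPD-1 mice the scrambled peptide and anti-PD-1, and ANT008+aPD-1 mice both active agents. Peptides were given at 10 µg daily under the skin and antibodies at 200 µg into the peritoneum every 3 days, for 10 days. All groups thus carried the same tumor, and every mouse received a peptide and an antibody, so the contrasts ask what blocking VIP signaling, blocking PD-1 or blocking both did to these transcripts. The mice were 8 to 10 weeks old.

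Regulatory T cells are CD4+ T cells that restrain other lymphocytes. Foxp3 encodes the transcription factor that fixes their identity, Il2ra encodes CD25, the alpha chain that gives the IL-2 receptor its high affinity, and Il10 encodes a cytokine that dampens antigen presentation and inflammation. CD25 also appears on effector T cells after antigen receptor stimulation, and Il10 is made by macrophages and other T cells as well, so that only Foxp3 is largely restricted to this lineage in the mouse. In tumors, regulatory T cells are known for limiting the response of effector T cells.

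The barcoded probes of this assay are counted after hybridization to single RNA molecules, and each reads 100 bases of 1 transcript, so the sequence behind each count is shown here as the panel definition gives it. The Foxp3 probe lies on positions 194 to 293 of NM_054039.2 (gene on chromosome X) and runs into the start of the coding sequence. The Il2ra probe lies on positions 325 to 424 of NM_008367.2 (chromosome 2), within the coding sequence, where 1 of the 3 reading frames has no stop codon. The Il10 probe lies on positions 985 to 1084 of NM_010548.1 (chromosome 1), in the 3′ UTR. For Foxp3 the last 30 bases are shown, with the start codon in capitals, and for Il10 the first 30.
Foxp3: acaagaacccaATGcccaaccctaggccag
Il2ra: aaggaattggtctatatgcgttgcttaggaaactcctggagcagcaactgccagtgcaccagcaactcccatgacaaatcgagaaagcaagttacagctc
Il10: gggccctttgctatggtgtcctttcaattg

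Depth differed between lanes, and each mouse occupied 1 lane. The endogenous total ran from 93480 to 1486646 counts in the 9 lanes without both active agents, and was 5776, 268678 and 24813 in ANT008+aPD-1 mice 1, 2 and 3. Counts up to 2 SD above the mean of the 8 negative controls were taken as background, which put it between 9.94 and 28.2 counts in a lane. Scaled counts are raw counts divided by the size of the lane, which is the geometric mean of its housekeeping genes Dnajc14, Oaz1 and Ubb relative to that of all lanes. On that scale the background reached 358, 13.8 and 149 for the 3 mice with ANT008+aPD-1, against 3.42 to 46.3 elsewhere, so a scaled count in ANT008+aPD-1 mice 1 and 3 can be high while its raw count is at background. Mouse 1 of Scram+IgG and mouse 1 of ANT008+IgG carry the mark FLAG, for which no reason is stated.

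In these T cells Foxp3 overlapped Scram+IgG in every treated group. Il2ra had its highest group mean with ANT008+aPD-1, though this group overlapped Scram+IgG and its mouse 1 did not exceed background. Il10 had the third largest log2 fold change of the 640 tested genes with ANT008+aPD-1, though in 2 of those 3 lanes its raw count did not exceed background. Against Scram+IgG, the log2 fold change with ANT008+aPD-1 was 0.44 for Foxp3, 1.63 for Il2ra and 3.82 for Il10. None of the 3 passed an FDR below 0.1 in edgeR's quasi-likelihood test, and 0 of the 640 tested genes (0%) did in any of the 6 contrasts. With an unadjusted p below 0.05 there were 3 genes with ANT008+IgG, 7 with Scram+aPD-1 and 82 with ANT008+aPD-1, each against Scram+IgG, and DESeq2 called 0, 0 and 30 genes in these contrasts. Relative to ANT008+IgG, relative to Scram+aPD-1 and in the interaction of both agents, 50, 40 and 9 genes had an unadjusted p below 0.05, and DESeq2 called 5, 5 and 0. Il10 exceeded background in 6 of the 12 lanes, Foxp3 in 8 and Il2ra in 11.

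**Figure D1:**
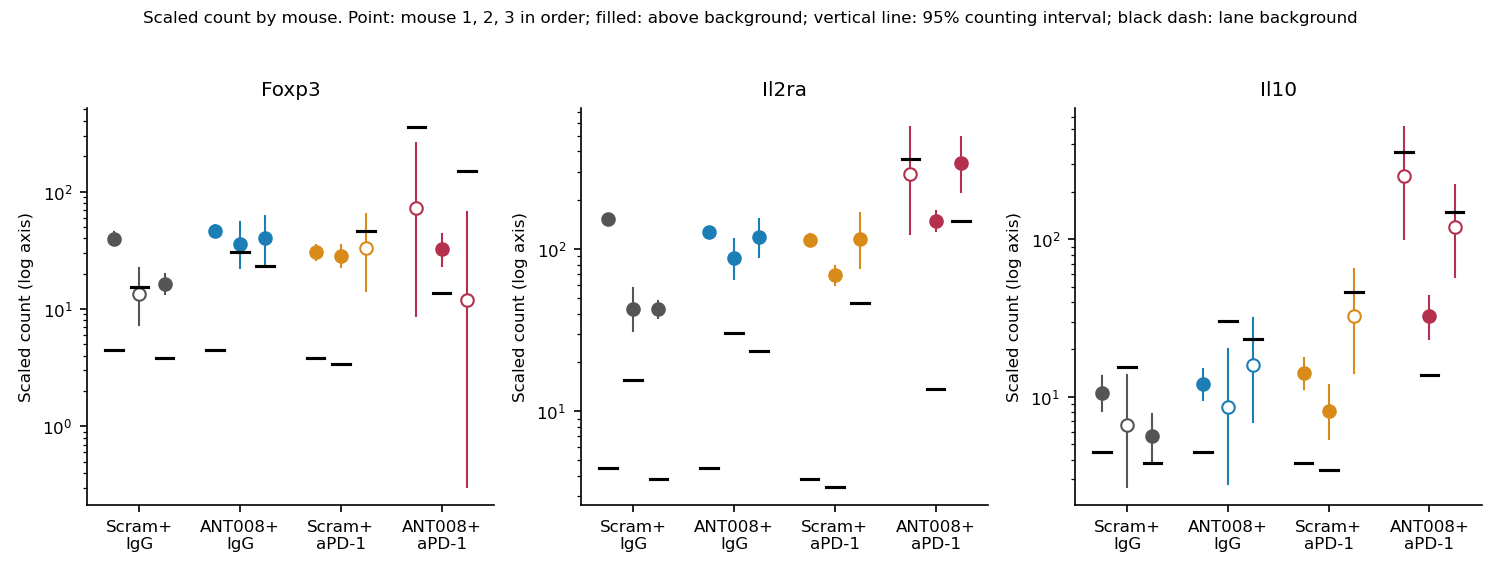
Scaled counts of Foxp3, Il2ra and Il10 in each of the 12 lanes, on a log axis, with the 3 mice of a group side by side in the order of their numbers. Filled points exceed the lane background (black dash), open points do not, and vertical lines are 95% Poisson intervals of the count; in ANT008+aPD-1 mouse 1 all 3 genes lie under the dash at 358.

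Foxp3, the lineage factor, was counted 244, 14 and 105 times in Scram+IgG mice 1, 2 and 3. With ANT008+IgG it was counted 291, 21 and 20 times, and with Scram+aPD-1 171, 94 and 8 times. With ANT008+aPD-1 the counts were 2, 41 and 1, and only that of mouse 2 exceeded its background. Scram+IgG mouse 2 and Scram+aPD-1 mouse 3 were also at or below background, whereas all 3 ANT008+IgG lanes were above it.
On the scaled count, Foxp3 was 39.7, 13.3 and 16.4 with Scram+IgG and 46.2, 36.1 and 39.9 with ANT008+IgG. The Scram+aPD-1 mice had 30.4, 28.5 and 32.8, and the ANT008+aPD-1 mice 72.1, 32.4 and 12.0. Each treated group overlapped Scram+IgG, whose mouse 1 lay within or above their ranges. The group means were 23.1 ± 14.4 (SD, n = 3 mice) with Scram+IgG, 40.8 ± 5.11 with ANT008+IgG, 30.6 ± 2.15 with Scram+aPD-1 and 38.8 ± 30.5 with ANT008+aPD-1, so that ANT008+IgG and ANT008+aPD-1 were the highest and were not separated by their spread. As RNA of a bulk cell population, these values cannot tell a change in the number of Foxp3+ cells from a change in Foxp3 RNA per cell.
Against Scram+IgG, the log2 fold change of Foxp3 was 0.80 with ANT008+IgG (standard error 0.49, edgeR FDR = 0.999), higher than that of 94.5% of the tested genes. It was 0.37 with Scram+aPD-1 (standard error 0.50, edgeR FDR = 0.988) and 0.44 with ANT008+aPD-1 (standard error 0.58, edgeR FDR = 0.793). The median of all tested genes was 0.11, 0.15 and 0.12 in these contrasts. ANT008+aPD-1 stood 0.36 below ANT008+IgG (log2 fold change -0.36, standard error 0.59) and 0.07 above Scram+aPD-1 (standard error 0.59). The interaction of both agents was -0.73 (standard error 0.77, edgeR FDR = 0.993). These comparisons share control mice, so their values stand side by side. An exact permutation test of the one-way F statistic over all 369600 arrangements of the 12 mice gave p = 0.524 for Foxp3.
The direction of Foxp3 with ANT008+aPD-1 depended on the scaling: scaling by the CD3 genes gave -1.05 and by the positive control probes -4.03, where the medians of all tested genes were -1.94 and -4.37. The control group rested on its mouse 1: leaving out Scram+IgG mouse 1 gave Foxp3 a log2 fold change of 1.45 with ANT008+IgG (unadjusted p = 0.0145, FDR = 0.449 in edgeR), 1.01 with Scram+aPD-1 (edgeR FDR = 0.433) and 1.08 with ANT008+aPD-1 (edgeR FDR = 0.278). Without ANT008+aPD-1 mice 1 and 3, the lanes of lowest depth, the value with ANT008+aPD-1 was 0.46 (standard error 0.58), with 1 mouse left in the group and its spread assumed to be that of the others.

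Il2ra, the receptor chain, was counted 933, 45 and 272 times with Scram+IgG and 800, 51 and 59 times with ANT008+IgG. With Scram+aPD-1 it was counted 638, 228 and 28 times, and with ANT008+aPD-1 8, 189 and 28 times. It was the best measured of the 3 genes, and ANT008+aPD-1 mouse 1 was its one lane at or below background.
The scaled counts of Il2ra were 152, 42.8 and 42.5 in Scram+IgG mice. They were 127, 87.8 and 118 after ANT008+IgG, and 114, 69.1 and 115 after Scram+aPD-1. With ANT008+aPD-1 they were 288, 149 and 337, or 258 ± 97.5 (SD, n = 3 mice) against 79.0 ± 62.9 with Scram+IgG, 99.1 ± 26.0 after Scram+aPD-1 and 111 ± 20.6 after ANT008+IgG. All ANT008+aPD-1 mice lay above all mice of either single agent, and they overlapped Scram+IgG only through Scram+IgG mouse 1. The other 3 groups overlapped one another.
With ANT008+aPD-1 against Scram+IgG, the log2 fold change of Il2ra was 1.63 (standard error 0.54, edgeR FDR = 0.309), the rank 20 of 640 by p. Against ANT008+IgG it was 1.15 (standard error 0.54, edgeR FDR = 0.578) and against Scram+aPD-1 1.33 (standard error 0.55, edgeR FDR = 0.751), where the median of all tested genes was -0.04 in both. With ANT008+IgG against Scram+IgG it was 0.48 (standard error 0.50, edgeR FDR = 0.999), with Scram+aPD-1 0.30 (standard error 0.51, edgeR FDR = 0.988), and in the interaction 0.85 (standard error 0.74, edgeR FDR = 0.993). The exact permutation test over the 12 mice gave p = 0.0417 for the 4 groups. For ANT008+aPD-1 it was p = 0.0164 in the permutation form of Dunnett's test, which takes the greatest of the standardized differences to Scram+IgG. All 3 genes were tested this way. Benjamini-Hochberg adjustment over the 3 genes took the exact permutation p of Il2ra over the 4 groups to 0.0625. The Dunnett form covers the 3 comparisons with Scram+IgG, but it is not adjusted over the 3 genes.
Scram+IgG mouse 1 and depth both moved these values. Leaving out Scram+IgG mouse 1 gave a log2 fold change of 2.52 (edgeR FDR = 0.0210), leaving out both lanes marked FLAG 2.51 (edgeR FDR = 0.0180), and leaving out ANT008+aPD-1 mouse 2 1.99 (edgeR FDR = 0.0806). Leaving out any other single mouse of Scram+IgG or ANT008+aPD-1 gave 1.31 to 1.55, with an edgeR FDR of 0.581 or more. The single agents moved as well when Scram+IgG mouse 1 was left out, to 1.38 with ANT008+IgG (unadjusted p = 0.00634, FDR = 0.449 in edgeR) and 1.20 with Scram+aPD-1 (unadjusted p = 0.0139, FDR = 0.299 in edgeR), and the interaction was -0.06. Without ANT008+aPD-1 mice 1 and 3 the value of ANT008+aPD-1 against Scram+IgG was 0.91 (standard error 0.69, edgeR FDR = 0.885), and the remaining mouse, at 149, lay next to Scram+IgG mouse 1 at 152.

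Il10, the cytokine, was counted 65, 7 and 36 times with Scram+IgG and 76, 5 and 8 times with ANT008+IgG. The Scram+aPD-1 mice gave 80, 27 and 8 counts and the ANT008+aPD-1 mice 7, 41 and 10. Only 1 lane of ANT008+aPD-1 and 1 of ANT008+IgG exceeded background, and 2 each with Scram+IgG and Scram+aPD-1.
The scaled counts of Il10 were 10.6, 6.67 and 5.63 with Scram+IgG and 12.1, 8.60 and 16.0 with ANT008+IgG. In the Scram+aPD-1 mice they came to 14.2, 8.19 and 32.8, while those given ANT008+aPD-1 had 252, 32.4 and 120.3. The values of 252 and 120.3 lay under scaled backgrounds of 358 and 149. In ANT008+aPD-1 mouse 2, the lane above background, 32.4 had a 95% Poisson interval of 23.2 to 43.9, above the 14.2 (11.3 to 17.7) of Scram+aPD-1 mouse 1, the highest of the other 5 lanes above background. All ANT008+aPD-1 mice lay above all Scram+IgG and all ANT008+IgG mice, and they overlapped Scram+aPD-1 through its mouse 3, itself below background.
With ANT008+aPD-1 against Scram+IgG, the log2 fold change of Il10 was 3.82 (standard error 0.79, edgeR FDR = 0.242), which ranked 1 of 640 by p and 3 by size. Against ANT008+IgG it was 3.17 (standard error 0.80, edgeR FDR = 0.578) and against Scram+aPD-1 2.77 (standard error 0.80, edgeR FDR = 0.747). With ANT008+IgG against Scram+IgG it was 0.65 (standard error 0.71, edgeR FDR = 0.999), with Scram+aPD-1 1.05 (standard error 0.71, edgeR FDR = 0.988), and in the interaction 2.12 (standard error 1.06, edgeR FDR = 0.993). The exact permutation test over the 12 mice gave p = 0.00851 for the 4 groups and p = 0.00357 for ANT008+aPD-1 against Scram+IgG; these again treat the lanes at background as measured.
Il10 with ANT008+aPD-1 differed with depth and tool. Without ANT008+aPD-1 mice 1 and 3 the log2 fold change was 2.06 (standard error 0.66, unadjusted p = 0.0124 and FDR = 0.885 in edgeR), resting on mouse 2 alone. TMM scaling gave 3.47 (edgeR FDR = 0.0938) and DESeq2 3.51 (DESeq2 FDR = 0.000109). Il10 did not pass with background subtraction (3.22, edgeR FDR = 0.441), limma (3.59, limma FDR = 0.138), all 20 housekeeping genes (3.70, edgeR FDR = 0.18) or total counts (3.74, edgeR FDR = 0.118). Compared with the single agents, the DESeq2 FDR of Il10 was 0.0178 (ANT008+IgG) and 0.0185 (Scram+aPD-1). Leaving out Scram+IgG mouse 1 gave 4.16 (edgeR FDR = 0.0347), and leaving out ANT008+aPD-1 mouse 2 gave 4.48 (edgeR FDR = 0.0236), where the group then held only the lanes at background. Leaving out any other single mouse of Scram+IgG or ANT008+aPD-1 gave 3.10 to 3.76, with an edgeR FDR of 0.581 or more. For the single agents, leaving out 1 mouse moved Il10 between 0.46 and 1.00 with ANT008+IgG and between 0.55 and 1.47 with Scram+aPD-1.

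**Figure D2:**
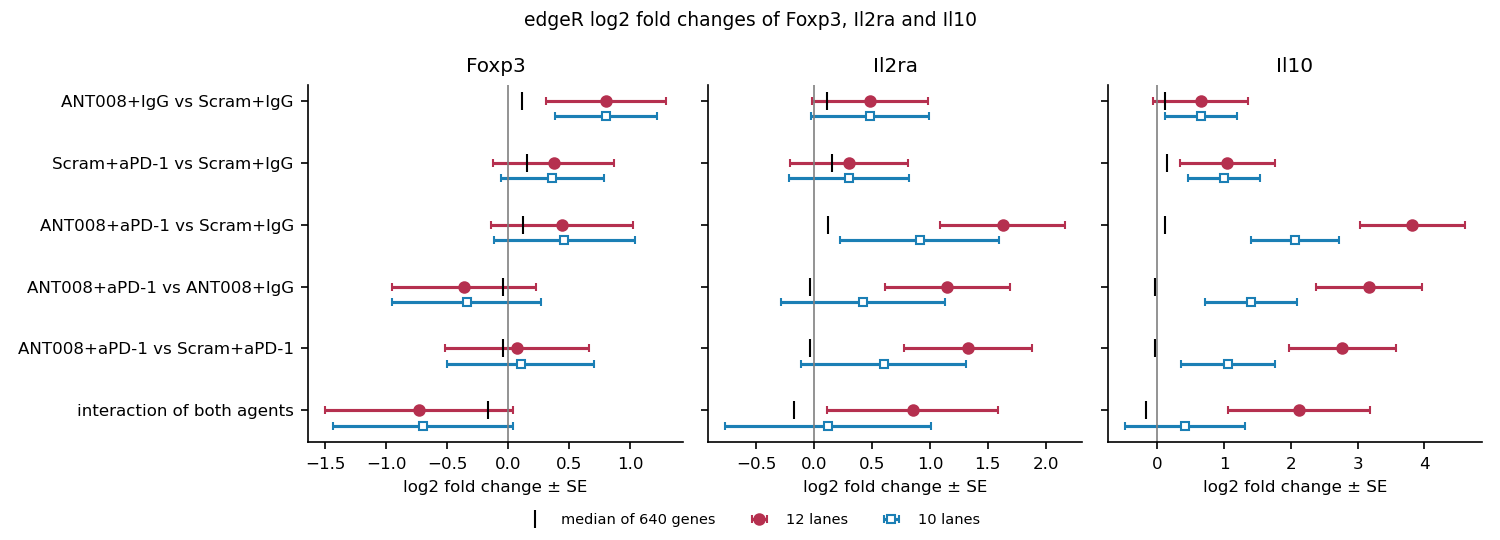
Log2 fold changes of the 3 genes in the 6 contrasts (x axis, log2 units, bars are standard errors), from the 12 lanes and from the 10 lanes without ANT008+aPD-1 mice 1 and 3, with the median of the 640 tested genes as a tick. Il10 and Il2ra in the contrasts with ANT008+aPD-1 move toward 0 with 10 lanes, from 3.82 to 2.06 and from 1.63 to 0.91 against Scram+IgG, and Foxp3 stays between -0.73 and 0.80.

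Counting members whose mice did not overlap, 1 of the 3 genes (Il10) was higher with ANT008+aPD-1 than with Scram+IgG, where 7.81% of the 640 tested genes were. Against ANT008+IgG it was 2 of 3 (Il2ra and Il10) beside 6.25%, and against Scram+aPD-1 1 of 3 (Il2ra) beside 4.53%. For either single agent relative to Scram+IgG it was 0 of 3, beside 2.97% in each. An exact test of 3 mice against 3 cannot go below p = 0.1, which each of the 4 non-overlapping pairs reached. All 4 pairs include lanes that did not exceed background: ANT008+aPD-1 mouse 1 for Il2ra, and mice 1 and 3 for Il10. Scaled background was 358 in mouse 1 and 149 in mouse 3, so a count at background there can lie above all other mice.

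Ratios of raw counts within a lane need no scaling between lanes, and 4 were compared. Foxp3 per 100 counts of Cd4, the coreceptor of helper and regulatory T cells, was 15.2, 13.0 and 15.3 for Scram+IgG and 21.1, 21.0 and 35.7 for ANT008+IgG. All ANT008+IgG mice lay above all Scram+IgG mice. The 95% counting intervals of mouse 2 overlapped, at 6.86 to 22.7 with Scram+IgG and 12.5 to 33.9 with ANT008+IgG. Foxp3 did not exceed background in Scram+IgG mouse 2. How often ratios of other genes separate in this way was not tested. For Scram+aPD-1 the ratio was 7.68, 21.2 and 8.70, and for ANT008+aPD-1 25, 14.4 and 3.57. The value of 14.4 (95% counting interval 10.1 to 20), in the one ANT008+aPD-1 lane where both genes exceeded background, lay among the Scram+IgG values. On the log2 scale, with 1 added to each count, the difference from Scram+IgG was 0.80 with ANT008+IgG (exact permutation p = 0.431), -0.34 with Scram+aPD-1 (exact permutation p = 0.883) and 0.02 with ANT008+aPD-1 (exact permutation p = 1).
Foxp3 per 100 counts of Cd3e, a chain of the T cell receptor complex, was 6.66, 23.7 and 29.0 for Scram+IgG and 11.6, 48.8 and 33.3 for ANT008+IgG. For Scram+aPD-1 it was 11.2, 17.5 and 47.1, and for ANT008+aPD-1 25, 8.33 and 4.17. The spread within a group exceeded the differences between groups, and mouse 1 of 3 groups was lowest (exact permutation p = 0.675 over the 4 groups).
Il2ra per count of Foxp3 lay between 2.43 and 3.82 in all 9 lanes outside ANT008+aPD-1. With ANT008+aPD-1 it was 4.00, 4.61 and 28.0, from Foxp3 counts of 2, 41 and 1. With 1 added to each count, mouse 1 lay among the other groups, at a log2 ratio of 1.58 beside 1.93 in Scram+IgG mouse 1. In mouse 2, where both genes exceeded background, the 95% counting interval was 3.27 to 6.63. The log2 difference from Scram+IgG was 0.90 (exact permutation p = 0.22, Benjamini-Hochberg over the 4 ratios 0.439), and 1.38 (exact permutation p = 0.0147) without ANT008+aPD-1 mouse 1, where the group held mouse 2 and the mouse with 1 Foxp3 count.
Il10 per count of Foxp3 was 0.266, 0.5 and 0.343 for Scram+IgG and 0.261, 0.238 and 0.4 for ANT008+IgG. For Scram+aPD-1 it was 0.468, 0.287 and 1, and for ANT008+aPD-1 3.5, 1 and 10, from Foxp3 counts of 2, 41 and 1. In the 6 lanes where both exceeded background it ranged up to 0.468 outside ANT008+aPD-1, against 1 (0.633 to 1.58) in ANT008+aPD-1 mouse 2. The log2 difference from Scram+IgG was 2.73 (exact permutation p = 0.0179, Benjamini-Hochberg over the 4 ratios 0.0714), and 1.44 (exact permutation p = 0.214) without ANT008+aPD-1 mice 1 and 3.

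**Figure D3:**
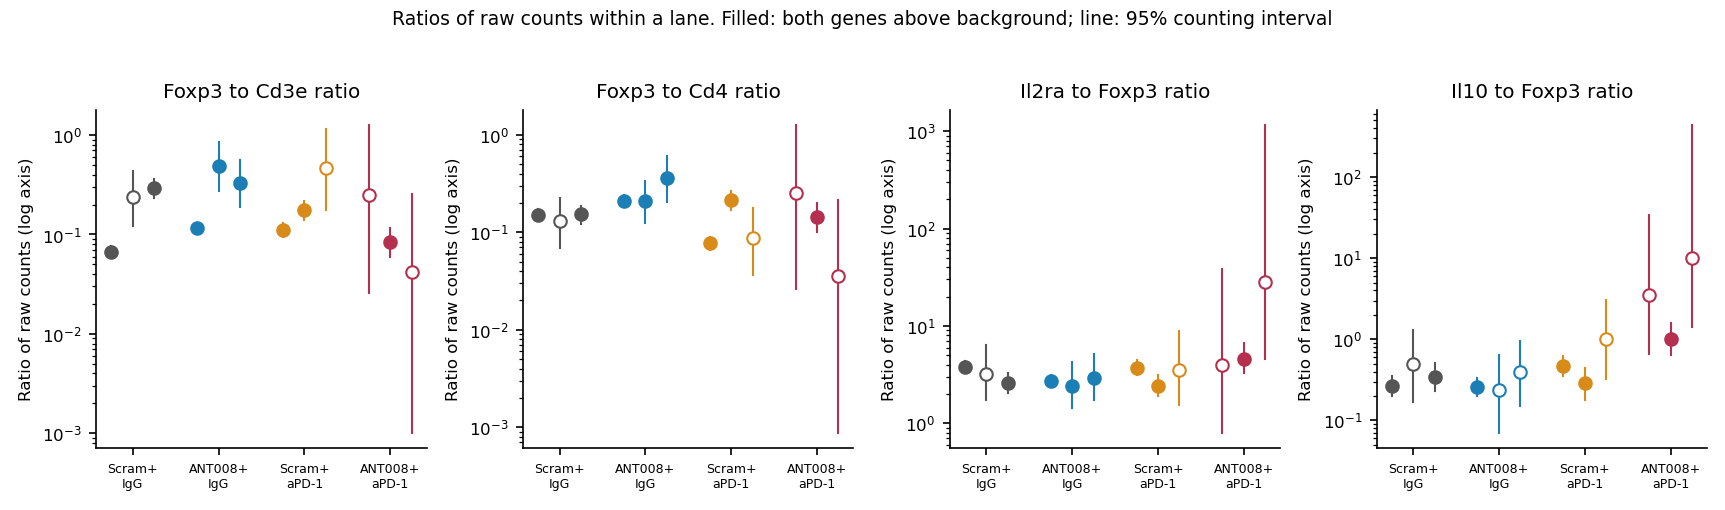
Ratios of raw counts of 2 genes in 1 lane, on log axes, for each of the 12 mice, with 95% counting intervals; filled points have both genes above background. In ANT008+aPD-1 mice 1 and 3 the intervals of the Foxp3 ratios span more than the differences between the groups.

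Of the IL-2 receptor and its signaling, the panel held 3 of the 10 listed genes beside Il2ra. In ANT008+aPD-1 relative to Scram+IgG all 3 lay above 0, where 363 of the 640 tested genes did. Their median log2 fold change was 0.95 beside 0.12 for all tested genes, and 0 of the 3 passed the FDR in either direction. Il2, the cytokine that CD25 binds, had a log2 fold change of 2.93 (standard error 0.92, edgeR FDR = 0.309), but its counts in ANT008+aPD-1 mice were 6, 23 and 8. Only that of mouse 2 exceeded background, and its scaled count there, 18.1, was that of Scram+IgG mouse 2, also 18.1. Stat5a and Stat5b, which carry the IL-2 signal to the nucleus and act on Foxp3 and Il2ra, had 0.95 (standard error 0.63) and 0.70 (standard error 0.37). In the single agent contrasts the 3 genes lay between -0.03 and 0.51.
Of the IL-10 list the panel held 2 of 10 genes, both above background in all 12 lanes. Stat3, which acts downstream of the IL-10 receptor, had a log2 fold change of 0.12 with ANT008+aPD-1 (standard error 0.36, edgeR FDR = 0.926), and Hif1a, a hypoxia-responsive factor, 0.09 (standard error 0.34, edgeR FDR = 0.929). They were near the median of all genes, unlike Il10.

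Of the regulatory T cell programme, the panel held 15 of the 41 listed genes. In ANT008+aPD-1 relative to Scram+IgG, 13 of them lay above 0 and 2 below, 0 passed the FDR in either direction, and the median log2 fold change was 0.93 beside 0.12 for all genes. It was 0.15 with ANT008+IgG (10 above 0) and 0.31 with Scram+aPD-1 (12 above 0). Of all 640 tested genes, 427 lay above 0 with ANT008+IgG, 401 with Scram+aPD-1 and 363 with ANT008+aPD-1. The medians of all tested genes with the single agents were 0.11 (ANT008+IgG) and 0.15 (Scram+aPD-1). The 3 highest with ANT008+aPD-1 were Cd28, a co-stimulatory receptor, at 2.13 (standard error 0.62, edgeR FDR = 0.309), Ctla4, an inhibitory receptor that regulatory T cells carry at high level, at 1.83 (standard error 0.71, edgeR FDR = 0.337), and Irf4, a transcription factor of activated T cells, at 1.58 (standard error 0.65, edgeR FDR = 0.357). Cd28 and Ctla4 exceeded background in all 12 lanes, though Ctla4 barely did in ANT008+aPD-1 mouse 1, with 10 counts beside a background of 9.94. Irf4 was counted 6, 78 and 9 times in the ANT008+aPD-1 mice and exceeded background there only in mouse 2. Its scaled count in mouse 2, 61.5, lay below the 70.1 of Scram+IgG mouse 1. In ANT008+aPD-1 mouse 1 most of the 15 genes did not exceed background. The 3 lowest were Smad3, which carries TGF-beta signals, at -1.06 (standard error 0.59), Runx1, a partner of Foxp3, at -0.10 (standard error 0.33), and Smad2, another TGF-beta mediator, at 0.59 (standard error 0.56). Many of these genes are also expressed by activated effector T cells, so the list does not stand for regulatory T cells alone.

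**Figure D4:**
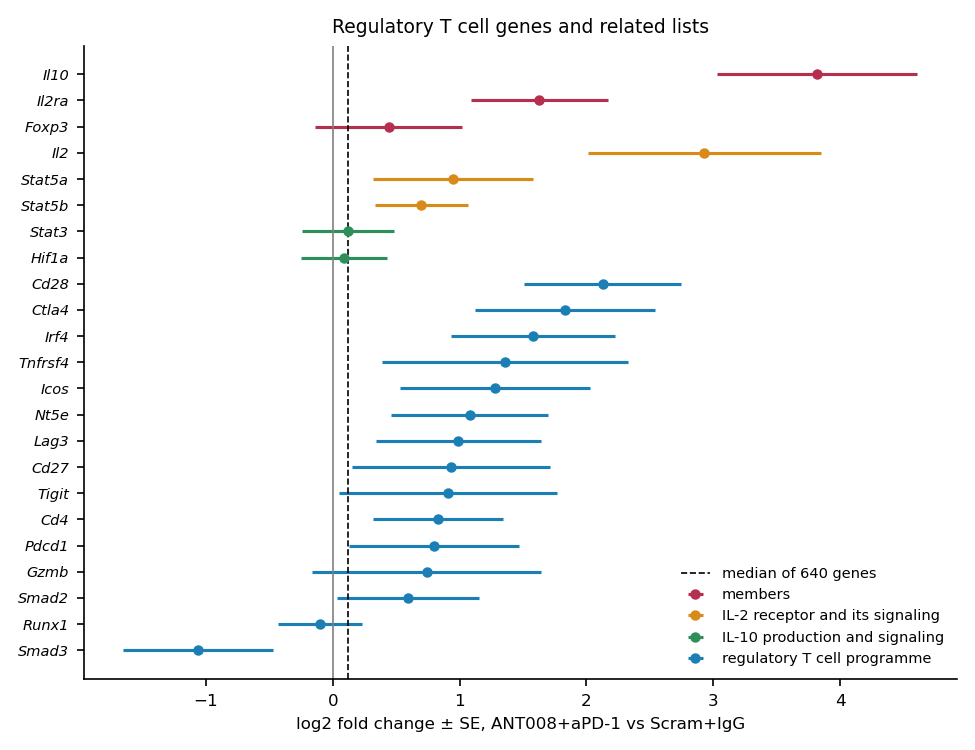
Log2 fold change with standard error of the 3 genes and the listed genes the panel holds, for ANT008+aPD-1 against Scram+IgG, with the dashed line at the median of the 640 tested genes (0.12). Il10, Il2, Cd28, Ctla4 and Il2ra lie farthest to the right, Foxp3 near the median and Smad3 below 0.

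The genes whose scaled counts ran most like each member over the 12 lanes were named by Spearman's rho, as a description without a test, since all values share the lane scaling. For Il2ra these were Fasl (rho = 0.97), Irf4 (0.91), Slc2a3 (0.90), Adora2a (0.90) and Cd244a (0.89). Over the 10 lanes without ANT008+aPD-1 mice 1 and 3 Fasl, an effector T cell ligand, stayed first at 0.95. Irf4, Slc2a3, Adora2a and Cd244a then ranked 11, 9, 17 and 20, and Ltb (0.94), Klrd1 (0.93), Ifng (0.92) and Ccl4 (0.89) followed Fasl. Slc2a3 and Adora2a exceeded background in 7 and 8 of the 12 lanes. For Il10 they were Adora2a (0.94), an adenosine receptor, Cd40lg (0.94), H2-Q10 (0.92), Ptger4 (0.92) and Tlr7 (0.91), but Il10 exceeded background in only 6 lanes, and its ranks in the other lanes rest on counts at background. For Foxp3 they were Fnip2 (0.78), Cd36 (0.76), Pdgfb (0.70), Plk1 (0.69) and Atg2b (0.68), a weaker likeness that did not keep its order: over the 10 lanes these genes ranked 28, 25, 15, 59 and 25, and Lta (0.79) and Il2ra (0.76) came first. Foxp3 and Il2ra had a rho of 0.40 over the 12 lanes, and Il2ra and Il10 0.82, which was 0.70 over the 10. The median rho over all tested genes was -0.03 for Foxp3, 0.03 for Il2ra and 0.13 for Il10.

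Markers of other cell types that the preparation could hold were set beside these values. The summed scaled count of 9 T cell markers was 3542 to 5138 with ANT008+aPD-1 and 808 to 4771 with Scram+IgG. It was 1561 to 3156 with ANT008+IgG and 1643 to 3062 with Scram+aPD-1. The 9 myeloid markers on the panel summed to 4758 to 7785 with ANT008+aPD-1, 1068 to 4207 with Scram+IgG, 1218 to 3542 with ANT008+IgG and 1862 to 6484 with Scram+aPD-1. In ANT008+aPD-1 relative to Scram+IgG all 9 lay above 0, where 363 of the 640 tested genes did, with a median log2 fold change of 1.15. The highest were Cd163, a macrophage scavenger receptor, at 2.62 (standard error 1.16), Nos2 at 2.59 (standard error 0.70) and Cd14 at 2.36 (standard error 0.53). Cd163 was counted 2, 13 and 23 times in the ANT008+aPD-1 mice and exceeded background only in mouse 3, and its scaled count of 10.3 in mouse 2 lay below all Scram+IgG mice. No myeloid marker passed the FDR, and 4, 8 and 7 of the 9 exceeded background in ANT008+aPD-1 mice 1, 2 and 3. The 9 T cell markers had a median log2 fold change of 0.88 and the 4 NK cell markers 0.75, and the 3 B cell markers were at or below background in all ANT008+aPD-1 lanes. Macrophages are a known source of Il10, and the part of these cells in the Il10 values was not tested. The panel held none of the listed tumor epithelium markers, and of the listed stroma genes only Pdgfrb.

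The direction of the ANT008+aPD-1 values turned with some scalings. All 3 genes stayed above 0 with TMM, total counts and all 20 housekeeping genes. Positive controls turned all 3, and CD3 genes turned Foxp3. In ANT008+aPD-1 mouse 1 Cd3d, Cd3e, Cd3g and Cd247 were counted 18, 8, 24 and 14 times beside a background of 9.94. Lane sizes by positive controls ran from 0.504 to 1.57, while endogenous totals ran from 5776 to 1486646. Against Scram+IgG, scaling by the 4 CD3 genes gave a log2 fold change of 0.22 for Il2ra and 2.13 for Il10, beside the -1.05 for Foxp3 and the median of -1.94, and scaling by the positive control probes gave -3.53 for Il2ra and -1.88 for Il10 beside the median of -4.37. Relative to the median of all tested genes, Foxp3 stood 0.32 above it with housekeeping scaling, 0.89 with CD3 scaling and 0.34 with positive controls. Il2ra stood 1.51, 2.16 and 0.85 above it, and Il10 3.70, 4.07 and 2.49. Because a scaling divides all genes of a lane by the same size, these distances largely leave the scaling out and are no test of it.

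**Figure D5:**
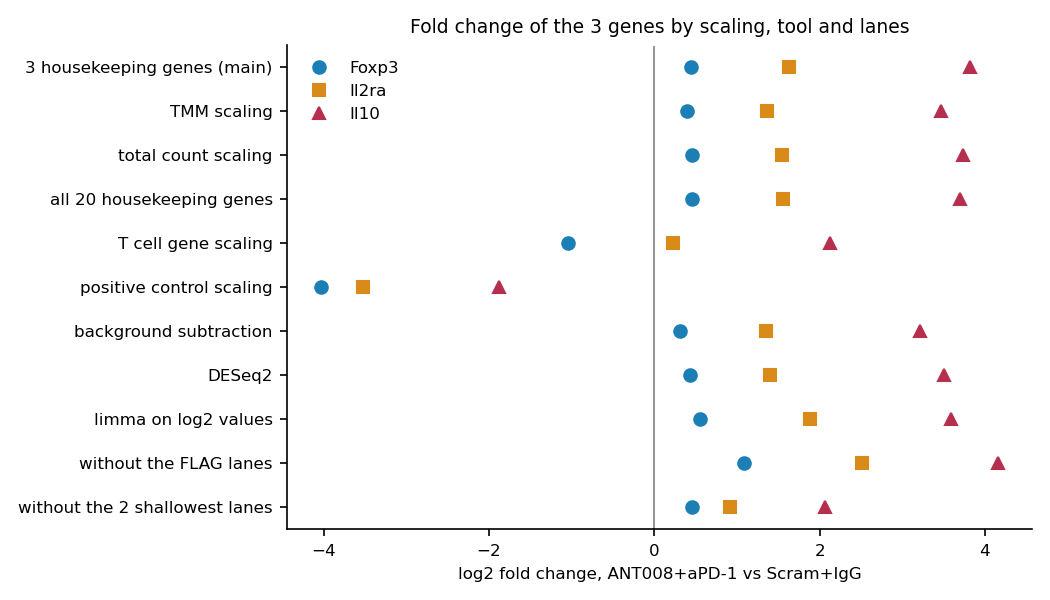
Log2 fold change of ANT008+aPD-1 against Scram+IgG for the 3 genes (x axis) under the housekeeping scaling and the alternatives on the y axis. The order Foxp3, Il2ra, Il10 from lowest to highest holds in each row, while positive control scaling puts all 3 below 0 and CD3 scaling puts Foxp3 at -1.05. A scaling divides all genes of a lane by the same size, so the order could change little between scalings.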

How the data were processed

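RNA of T cells from KPC.Luc tumors of 12 mice was hybridized to a panel of metabolic and immune genes and read on the nCounter system. Raw counts were deposited by the authors for every probe and lane, as whole numbers with neither background nor scaling applied, together with the panel definition that gives the probe targets. A test for single genes is not named in the methods, and an FDR below 0.1 comes from a figure legend. Groups and mouse numbers were taken from the sample titles.

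The size of a lane was set by 3 of the 20 housekeeping genes, those over background (2 SD above the mean of 8 negative controls) in all lanes. Of 748 endogenous genes, 640 exceeded background in 3 or more lanes, the 3 members among them, and entered the quasi-likelihood test of edgeR 4.0.16 (R 4.3.3) in 1 fit of the 4 groups without covariates, with Benjamini-Hochberg adjustment over all of them. A standard error is the log2 fold change divided by the root of its F statistic. Levels and within-lane ratios were compared on log2(scaled count + 1) or log2((count + 1)/(count + 1)) by exact permutation of the 12 mice (scipy 1.17.1, numpy 2.4.6). Poisson and Clopper-Pearson intervals (95%) cover counting error only. The members and the gene lists were chosen with earlier results of these data known. The rule for named genes covered all IL-2 and IL-10 list genes on the panel, the 3 highest and 3 lowest of the regulatory T cell programme and the 5 genes most alike to each member.

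The smallest chi-square of the counts of 2 lanes of a group was 3.06 times its degrees of freedom, so no pair was counted as 1 sample. The labels do not say that mice with the same number are related, and of the 18 same-number pairs 7 had deviations from their group means that correlated above 0.1, so the numbers were not treated as pairs. Nothing in the labels gives a batch. Alternatives were other scalings (TMM, positive controls, total count, all 20 housekeeping genes, CD3 genes), background subtraction, other filters, DESeq2 1.42.0, limma 3.58.1, a replicate block, fits of only the groups compared and lanes left out.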

Additional observations from a re-analysis of the deposited data

How the results depend on the processing

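Of the log2 fold changes of the 3 genes under the alternatives, 341 kept their direction and side of the threshold, 22 turned and 12 passed it. Scaling by positive controls gave Foxp3 -0.74 (Scram+aPD-1) and -4.03 (ANT008+aPD-1) relative to Scram+IgG, and -3.30 for ANT008+aPD-1 relative to Scram+aPD-1. Il2ra was then -0.31, -0.78 and -3.53 in the contrasts with Scram+IgG (ANT008+IgG, Scram+aPD-1, ANT008+aPD-1), -3.21 and -2.74 between ANT008+aPD-1 and the single agents, and -2.43 in the interaction. Il10 was -0.11, -0.17, -1.88, -1.77, -1.71 and -1.60 in the same order. Scaling by CD3 genes gave Foxp3 -0.02, -1.05 and -1.02 in the first 3 contrasts named, and Il2ra -0.11 between ANT008+aPD-1 and ANT008+IgG and -0.19 in the interaction. With 1 mouse left out, Foxp3 ran from -0.19 to 0.41 between ANT008+aPD-1 and Scram+aPD-1, below 0 without ANT008+aPD-1 mouse 1, and Il2ra in the interaction from -0.06 to 1.20, below 0 without Scram+IgG mouse 1. For ANT008+aPD-1 relative to Scram+IgG the ranges were 1.31 to 2.52 for Il2ra and 3.10 to 4.48 for Il10. For Il10 they were 2.44 to 3.83 against ANT008+IgG and 2.06 to 3.48 against Scram+aPD-1, with an edgeR FDR of 0.0528 and 0.0398 without ANT008+aPD-1 mouse 2. DESeq2 gave Il10 3.51, 2.90 and 2.62 in the contrasts of ANT008+aPD-1, TMM 3.47, and leaving out the lanes marked FLAG 4.16 for Il10 and 2.51 for Il2ra. The exact permutation p over the 4 groups for Il2ra was 0.0765 with TMM, 0.511 with positive controls, 0.882 with CD3 genes and 0.11 with background subtraction, and for Il10 0.827 with positive controls and 0.214 with CD3 genes. Of the ratios, Foxp3 to Cd3e ran with 1 mouse left out from -0.33 to 0.81 for Scram+aPD-1 and from -1.04 to 0.02 for ANT008+aPD-1. Foxp3 to Cd4 for ANT008+aPD-1 ran from -0.56 to 0.58 and was -0.01 without the 2 shallowest lanes. Il2ra to Foxp3 ran from -0.16 to 0.15 for Scram+aPD-1, with 0.22 after background subtraction, and from 0.24 to 1.38 for ANT008+aPD-1, the last without its mouse 1 and with an exact permutation p of 0.0147. Il10 to Foxp3 ran from -0.46 to 0.03 for ANT008+IgG and was 1.44 for ANT008+aPD-1 without the 2 shallowest lanes. Genes called in the contrast of ANT008+aPD-1 with Scram+IgG numbered 0, but 305 (all lower) with CD3 scaling, 30 with DESeq2, 2 with TMM, 1 with total counts, 83 without the lanes marked FLAG, and up to 84 with 1 mouse left out (84 without Scram+IgG mouse 1, 68 without ANT008+aPD-1 mouse 2). Against ANT008+IgG it was 5 with DESeq2 and up to 26, against Scram+aPD-1 5 and up to 35, and in the interaction up to 1, each highest without ANT008+aPD-1 mouse 2. With the replicate number as a block 0 genes were called in any contrast, Il10 was 3.74 (edgeR FDR = 0.107) and Il2ra 1.83 (edgeR FDR = 0.131) in the contrast of ANT008+aPD-1 with Scram+IgG. The same-numbered mice, which are not known to be related, correlated from -0.64 to 0.78. The cause was not tested. Depth limits the ANT008+aPD-1 values, since 2 of those 3 lanes held Foxp3 and Il10 at or below background.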
